A study of Homo sapiens with 6 samples.

Results

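The NKG2D ligands are the 8 human genes MICA, MICB, ULBP1, ULBP2, ULBP3, RAET1E, RAET1G and RAET1L. They were taken by gene symbol from the deposited tables, where all 8 are among the 24305 gene symbols. RNA sequencing was done on DU 145, an established epithelial line of human prostate cancer. Talazoparib, a drug that blocks the enzymes PARP1 and PARP2, was given for 48 h in 3 libraries, and 3 control libraries were taken at the same time. The controls are labelled "DMOS", read here as DMSO (a drug solvent). The text on the design gives doses of 5, 10 and 20 µM and does not say which one was sequenced, and it describes DU 145 as deficient in homologous recombination repair. All libraries come from this 1 line, and nothing in the labels says that replicates were separate cultures, so p-values measure the spread between libraries, which may be technical.

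NKG2D, encoded by KLRK1, is an activating receptor of natural killer (NK) cells and of CD8 and gamma-delta T cells. Its ligands are distant relatives of MHC class I molecules that stressed, infected or transformed cells place on their surface, and the DNA damage response is one of the pathways known to induce them. MICA and MICB are transmembrane proteins with an immunoglobulin-like domain next to the membrane. The ULBP and RAET1 proteins lack that domain: ULBP1, ULBP2, ULBP3 and RAET1L (also called ULBP6) are held by a lipid anchor, while RAET1E (ULBP4) and RAET1G (ULBP5) can have a transmembrane segment. Tumour cells can release these ligands by proteolytic shedding.

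With talazoparib, RAET1E rose 3.04-fold and RAET1G 3.29-fold, MICB rose 1.26-fold and ULBP3 fell to 0.687 of the control level. MICA, ULBP1 and ULBP2 did not pass the test, and RAET1L was too low to test. Of the 8 ligands 7 were tested, of which 3 rose and 1 fell. By the same rule 26.8% of the 14452 genes tested rose and 29.9% fell, so the share of ligands that changed was near that of all genes. The test was edgeR's quasi-likelihood test on the deposited counts with Benjamini-Hochberg adjustment over all genes tested, and a gene was called at an adjusted p under 0.05. The median log2 fold change of the 7 ligands was 0.22, which is the value of MICA, against 0.0 over all genes tested. With the trend of fold changes over GC content and RNA length removed, the median was 0.11. In that fit 3 ligands rose and 2 fell, against 22.0% and 22.2% of its 13718 genes.

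The 8 genes lie in 2 groups on chromosome 6 (GENCODE release 29, GRCh38). MICA (ENSG00000204520, 31399784 to 31415315, plus strand) and MICB (ENSG00000204516, 31494881 to 31511124, plus strand) are in the MHC region, with RefSeq starts 94.5 kb apart. The other 6 form 1 cluster, in the order RAET1E (149883375 to 149898102, minus strand), RAET1G (149916878 to 149923121, minus strand), ULBP2 (149942000 to 149949235, plus strand), ULBP1 (149964007 to 149973710, plus strand), RAET1L (150018334 to 150025532, minus strand) and ULBP3 (150063150 to 150069095, minus strand). The ligands that rose most, RAET1E and RAET1G, are neighbours on the same strand with starts 25.0 kb apart, and ULBP3, which fell, is at the other end, 171 kb from the start of RAET1E.

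The bases before the RefSeq start of 5 of these genes (GRCh38.p14) are shown because the genes differed in response: the neighbours RAET1E and RAET1G rose together, ULBP3 fell, and the close relatives MICA and MICB stood on either side of the threshold. Each is 250 bases long, runs 5′ to 3′ on the gene's own strand and ends at the base before the start. Several motifs were searched on both strands. Capitals mark 3 of them, which do not overlap each other here: the GC box GGGCGG bound by SP1-type factors (CCGCCC on the other strand), the CCAAT box (ATTGG on the other strand), and GAANNTTC, the core of a heat shock element. The windows are chr6:149898114-149898363 (minus), chr6:149923122-149923371 (minus), chr6:150069122-150069371 (minus), chr6:31403345-31403594 (plus) and chr6:31497895-31498144 (plus). RAET1E has 3 starts in the RefSeq table, of which the most upstream is shown.
RAET1E: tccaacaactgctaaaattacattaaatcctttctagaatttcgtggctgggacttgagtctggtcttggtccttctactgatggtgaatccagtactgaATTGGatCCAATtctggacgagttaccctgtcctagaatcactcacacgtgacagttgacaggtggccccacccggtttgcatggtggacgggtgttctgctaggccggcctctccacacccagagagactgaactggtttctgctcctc
RAET1G: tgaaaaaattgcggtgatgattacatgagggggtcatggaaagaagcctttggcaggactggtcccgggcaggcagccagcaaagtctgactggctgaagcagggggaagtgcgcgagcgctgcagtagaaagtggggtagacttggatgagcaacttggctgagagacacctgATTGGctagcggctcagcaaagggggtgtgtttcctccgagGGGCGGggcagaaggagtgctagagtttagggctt
ULBP3: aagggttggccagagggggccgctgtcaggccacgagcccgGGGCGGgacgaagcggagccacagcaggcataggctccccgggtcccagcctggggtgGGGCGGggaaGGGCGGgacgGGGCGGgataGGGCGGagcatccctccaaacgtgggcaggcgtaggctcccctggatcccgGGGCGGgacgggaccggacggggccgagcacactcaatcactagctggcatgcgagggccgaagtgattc
MICA: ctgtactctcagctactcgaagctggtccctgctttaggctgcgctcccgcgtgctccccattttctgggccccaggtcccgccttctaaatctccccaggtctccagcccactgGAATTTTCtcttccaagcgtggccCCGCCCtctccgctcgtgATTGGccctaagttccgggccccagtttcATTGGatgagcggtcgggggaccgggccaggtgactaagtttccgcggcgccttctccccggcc
MICB: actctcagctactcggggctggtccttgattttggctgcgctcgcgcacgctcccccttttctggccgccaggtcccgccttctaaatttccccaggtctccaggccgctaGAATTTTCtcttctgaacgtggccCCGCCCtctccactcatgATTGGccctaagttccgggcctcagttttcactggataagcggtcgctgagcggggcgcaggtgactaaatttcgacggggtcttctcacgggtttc

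The window of ULBP3 held 6 GC boxes and no CCAAT, RAET1G held 1 GC box and 1 CCAAT, and RAET1E held no GC box and 2 CCAAT matches on opposite strands. At least 1 GC box was present in 42.6% and at least 1 CCAAT in 32% of 35116 RefSeq start windows of the same length. How many held 6 GC boxes was not counted. The ULBP3 window was 72.0% GC, against a median of 58.0% over all windows. Of the ligands that did not pass, ULBP1 held 2 GC boxes and no CCAAT, ULBP2 1 of each, and MICA 1 GC box and 2 CCAAT. MICB, which rose, held 1 of each. A link between these motifs and the responses was not tested. MICA and MICB each held the heat shock core, at 135 to 128 and 139 to 132 bases before the start; 5.78% of all windows held it, and none of the other 6 ligands did. These windows of MICA and MICB were identical at 85.4% of 246 aligned bases, against 62.7% of 212 for RAET1E and RAET1G. RAET1E and RAET1G had 6 and 8 CG dinucleotides in these bases, the fewest of the 8 ligands, against 12 to 22 in the other 6 and a median of 11 over all windows. A match is a description of letters, not of a bound site.

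Each library held 39123997 to 39585727 counts, over 18027 to 18344 genes detected. The summed level of 8 epithelial markers was 1004 to 1083 FPKM with talazoparib and 796 to 947 FPKM in controls, with KRT5 at 0. Of these markers 3 rose and 0 fell. KRT7 averaged 309 FPKM with talazoparib and 165 FPKM in controls. KRT8 (273 and 300 FPKM) and KRT18 (375 and 360 FPKM) did not pass. With the GC and length trend removed, KRT8 and KRT18 fell, with log2 fold changes of -0.37 and -0.33. CDH1, the epithelial cadherin, was low, with 24 to 43 counts with talazoparib and 38 to 68 in controls. Of 10 NK and T cell markers, 7 were in the table; PTPRC, CD3E and CD3D were at 0 in every library, and the summed level of those 7 was 0.00302 to 0.0238 FPKM with talazoparib and 0.00303 to 0.0385 FPKM in controls. The summed level of fibroblast and endothelial markers was 3.11 to 4.10 FPKM with talazoparib and 4.27 to 4.98 FPKM in controls. Most of it was COL3A1, which averaged 2.98 FPKM with talazoparib and 4.13 FPKM in controls. The summed level of 6 myeloid and B cell markers was 37.8 to 40.7 FPKM with talazoparib and 15.5 to 16.9 FPKM in controls, nearly all of it CD68, a lysosomal membrane protein also made by other cells. The part of these differences in the ligand results was not tested. Talazoparib replicates 2 and 3, and control replicate 1 against the other controls, differed most among replicates (chi-square per gene 29.87, 25.89 and 19.40, against 5.02 between control replicates 2 and 3). Fold changes over all genes follow GC content and length of the RNA, so values after removal of that trend (called trend-removed) stand beside the main ones; in that fit, over 13718 genes, 22.0% rose and 22.2% fell.

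MICA and MICB, the MHC-encoded ligands, were the most abundant. Levels are given as CPM (counts relative to library size, scaled with TMM factors). In bulk RNA, a change in the share of cells that carry a transcript and a change in RNA per cell cannot be told apart. MICB was at 129, 130 and 112 CPM in the 3 talazoparib libraries, against 101, 95.3 and 99.0 CPM in the 3 controls. All talazoparib libraries were above all controls, as was also the case in one direction or the other for 64.4% of genes tested. MICB rose by a log2 fold change of 0.33 ± 0.08 (SE; edgeR adjusted p = 0.00361), and trend-removed by 0.22 ± 0.06 (edgeR adjusted p = 0.00771). MICA was at 71.7, 75.3 and 66.3 CPM with talazoparib, against 66.9, 56.0 and 59.9 CPM in controls. The groups overlapped, because control replicate 1 was above talazoparib replicate 3. Its log2 fold change was 0.22 ± 0.09 (edgeR adjusted p = 0.0509), just outside the threshold, and trend-removed it was lower, at -0.19 ± 0.05 (edgeR adjusted p = 0.0132). Without talazoparib replicate 3 (0.27, edgeR adjusted p = 0.0273) or control replicate 1 (0.25, edgeR adjusted p = 0.0143), MICA passed as higher, so no direction can be given for it.

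**Figure D1:**
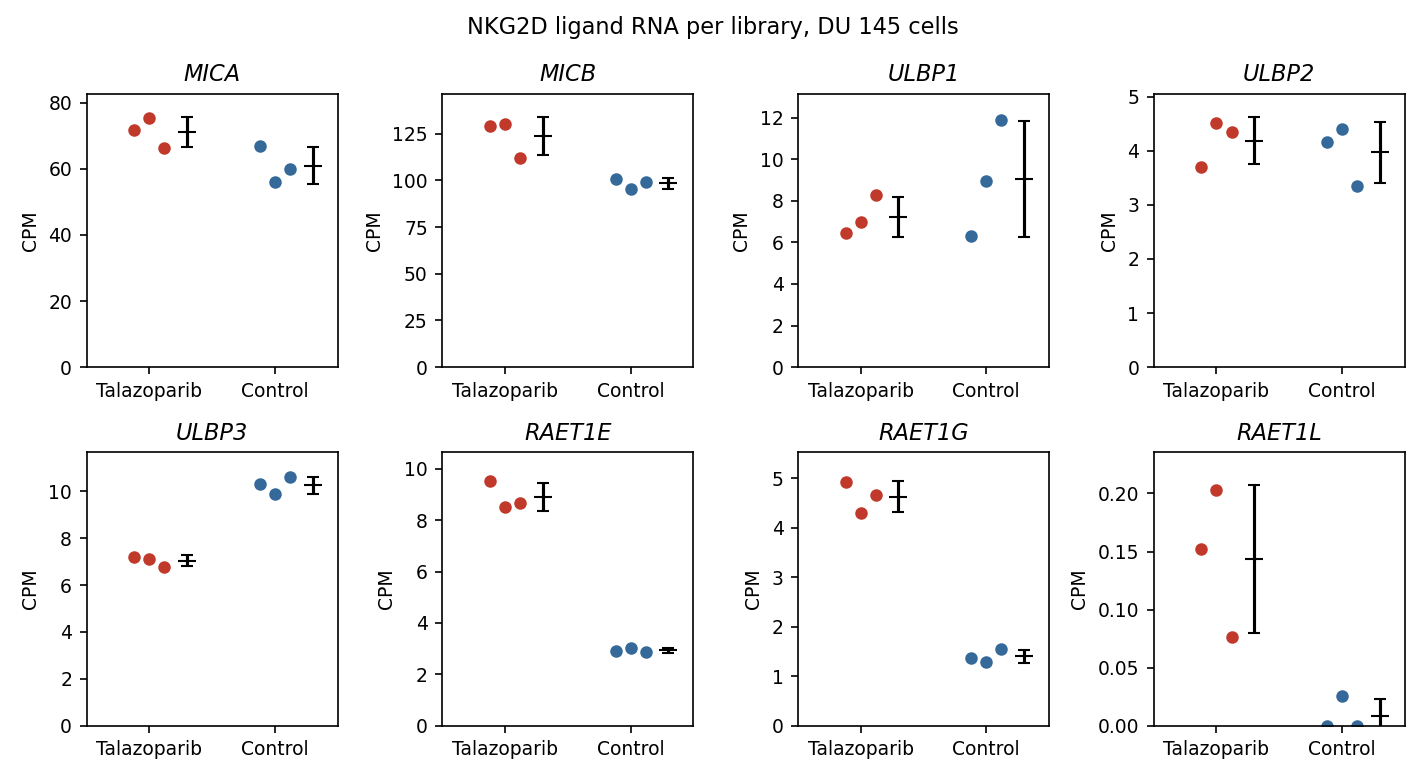
CPM (TMM-scaled; RAET1L by total counts) of each NKG2D ligand in the 3 talazoparib libraries (red) and the 3 control libraries (blue), with mean and SD in black; each y axis starts at 0. RAET1E, RAET1G and MICB lie higher and ULBP3 lower in every talazoparib library, and MICA, ULBP1 and ULBP2 overlap.

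Among the lipid-anchored ULBP proteins only ULBP3 passed the test. ULBP3 was at 7.21, 7.12 and 6.77 CPM with talazoparib, against 10.3, 9.88 and 10.6 CPM in controls, with no overlap and little spread within either group. It fell by 0.54 on the log2 scale (SE 0.13; edgeR adjusted p = 0.00348), and trend-removed by 0.83 (SE 0.10; edgeR adjusted p = 8.46e-05). ULBP1 was at 6.43, 6.96 and 8.29 CPM with talazoparib, against 6.32, 8.93 and 11.9 CPM in controls. The controls alone spanned the whole range of the talazoparib libraries, and the log2 fold change of -0.32 ± 0.21 did not pass (edgeR adjusted p = 0.207). Without control replicate 1 it passed as lower (-0.56, edgeR adjusted p = 0.0233), and trend-removed it was 0.11 ± 0.17. ULBP2 was at 3.70, 4.52 and 4.34 CPM with talazoparib, against 4.16, 4.40 and 3.34 CPM in controls. These ranges lay over each other, with a log2 fold change of 0.08 ± 0.18 (edgeR adjusted p = 0.736); a SE of that size leaves room for moderate changes in either direction. Whether the responses of ULBP1, ULBP2 and ULBP3 differ from each other was not tested.

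RAET1E and RAET1G, the ligands that can carry a transmembrane segment, had the largest changes of the 7. RAET1E was at 9.53, 8.53 and 8.65 CPM with talazoparib, against 2.89, 3.04 and 2.85 CPM in controls. The groups were far apart relative to their spread, and the log2 fold change was 1.60 ± 0.15 (edgeR adjusted p = 1.12e-05), a 3.04-fold rise. RAET1G was at 4.92, 4.31 and 4.67 CPM with talazoparib, against 1.37, 1.29 and 1.55 CPM in controls. Again no libraries overlapped, and the log2 fold change was 1.72 ± 0.19 (edgeR adjusted p = 2.25e-05), a 3.29-fold rise. Trend-removed, the values were 1.99 ± 0.12 for RAET1E and 1.37 ± 0.18 for RAET1G (edgeR adjusted p = 1.16e-06 and 0.000110). Rises of at least 2-fold were found for 2.75% of genes tested; ordered by log2 fold change among all 3873 genes that rose, RAET1G was number 72 and RAET1E number 100.

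RAET1L had 6, 8 and 3 counts with talazoparib, against 0, 1 and 0 counts in controls. Every talazoparib library was above every control, at a level near the limit of detection. In all there were 17 counts with talazoparib and 1 in controls, a ratio of 16.9 after scaling by total counts (95% exact interval 2.65 to 708, for counting error only). These few counts did not reach the minimum for the test. With no low-count filter RAET1L was tested and called higher, with a fitted log2 fold change of 3.73 (edgeR adjusted p = 0.0161) that depends on the prior count and is no measure of size. How many came from ULBP2, whose sequence is close, was not tested.

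**Figure D2:**
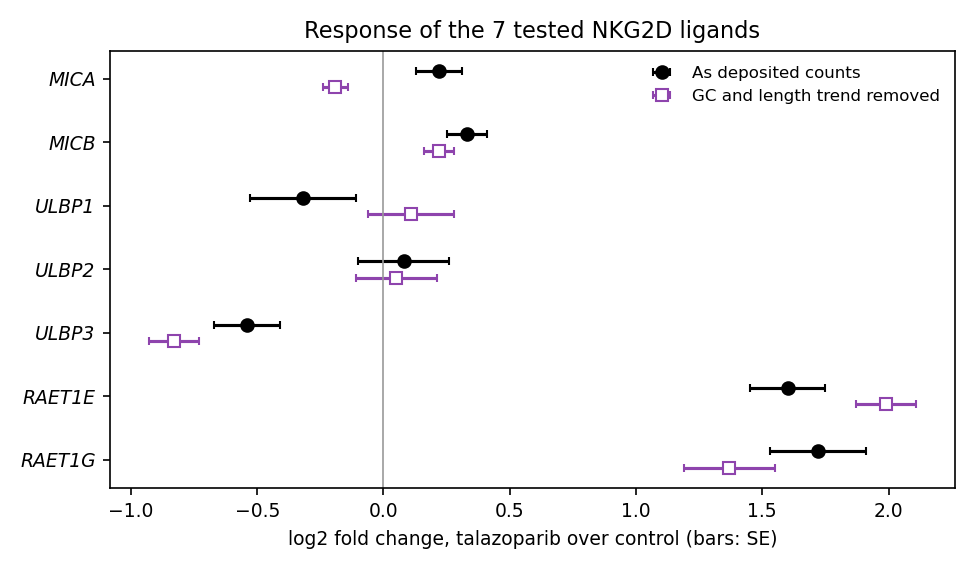
Log2 fold change, talazoparib over control, of the 7 tested ligands with SE bars, from the deposited counts (black circles) and with the GC and length trend removed (open purple squares). RAET1E and RAET1G are near 1.60 and 1.72 and above 1 in both fits, ULBP3 is below 0 in both, and MICA and ULBP1 change sign between them.

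The ligands resemble each other in sequence, which bears on how reads are assigned. The coding sequences of ULBP2 and RAET1L were identical at 96.7% of 738 aligned bases, RAET1G and RAET1L at 94.7%, ULBP2 and RAET1G at 94.6% and MICA and MICB at 92.1% of 989. RAET1E was the most distant of the ULBP and RAET1 genes, at 61.3 to 64.1% of aligned bases with the other ULBP and RAET1 genes. Of the 100-base stretches of RAET1E's annotated exons, 36.31% also occur in AL355312.5, a GENCODE transcript that runs through RAET1E exons on the same strand, which was not analysed here. The share was 11.92% for ULBP2 and 11.79% for RAET1L, each mostly shared with the other, 6.86% for ULBP3 (the pseudogene RAET1K), 1.59% for RAET1G and 0.0% for MICA and MICB. With 50-base stretches the share was 38.51% for RAET1E, 32.23% for ULBP2 and 31.53% for RAET1L. It was 12.39% for RAET1G (mostly ULBP2 and RAET1L), 12.35% for ULBP3, 6.85% for ULBP1, 3.09% for MICB and 2.43% for MICA. The read length is not stated here. Values of RAET1E, ULBP2 and RAET1L are therefore uncertain, and with short reads also those of RAET1G and ULBP3. The counting could split, drop or wrongly assign their shared reads. The part of AL355312.5 in the RAET1E counts was not tested.

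Fold changes of neighbouring and overlapping genes were read beside those of the ligands, since the sources used here do not say whether counting used strand. LRP11, a receptor-related gene next to RAET1E, averaged 15.5 ± 2.77 CPM with talazoparib and 11.9 ± 0.154 CPM in controls (SD, n = 3 each), a log2 fold change of 0.38 ± 0.14 (edgeR adjusted p = 0.0356). That call was lost in 5 of 6 leave-outs of 1 library, all but that of talazoparib replicate 2, with log2 fold changes of 0.26 to 0.36. Trend-removed, LRP11 rose by 0.58 (edgeR adjusted p = 0.00283). RAET1E-AS1, antisense to RAET1E, had 8, 1 and 4 counts with talazoparib and 0, 2 and 4 in controls, while RAET1E had 321 to 366 counts with talazoparib and 114 to 125 in controls. HCP5, a long non-coding RNA between MICA and MICB, averaged 3.97 ± 0.432 CPM with talazoparib and 2.53 ± 0.536 CPM in controls (SD, n = 3 each), a log2 fold change of 0.65 ± 0.20 (edgeR adjusted p = 0.0156). That call was lost without control replicate 1 or control replicate 3, at log2 fold changes between 0.46 and 0.64, and trend-removed (0.51, edgeR adjusted p = 0.0504). MICA-AS1 averaged 1.14 ± 0.339 CPM with talazoparib and 1.10 ± 0.313 CPM in controls (edgeR adjusted p = 0.899), and MICB-DT had 8 to 18 counts with talazoparib and 5 to 7 in controls.

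By deposited length, MICA and MICB stood far above the other ligands in both groups. On the authors' FPKM scale, which divides by the deposited gene length, MICB was at 48.4 and MICA at 48.0 FPKM with talazoparib, against 40.4 and 43.3 FPKM in controls, and these 2 overlapped in each group. With talazoparib the order of the rest was ULBP2 (2.91 FPKM), ULBP3 and ULBP1 (2.20 FPKM each), RAET1G (2.0 FPKM), RAET1E (0.897 FPKM) and RAET1L (0.107 FPKM). ULBP3, ULBP1 and RAET1G overlapped as neighbours in that order. In controls it was ULBP3 (3.37 FPKM), ULBP2 (2.91 FPKM), ULBP1 (2.90 FPKM), RAET1G (0.637 FPKM), RAET1E (0.311 FPKM) and RAET1L (0.00633 FPKM). There, ULBP3, ULBP2 and ULBP1 overlapped as neighbours. RAET1G kept the same place in the order in both groups: with talazoparib its range overlapped that of ULBP1, and in controls it overlapped no ULBP gene.

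**Figure D3:**
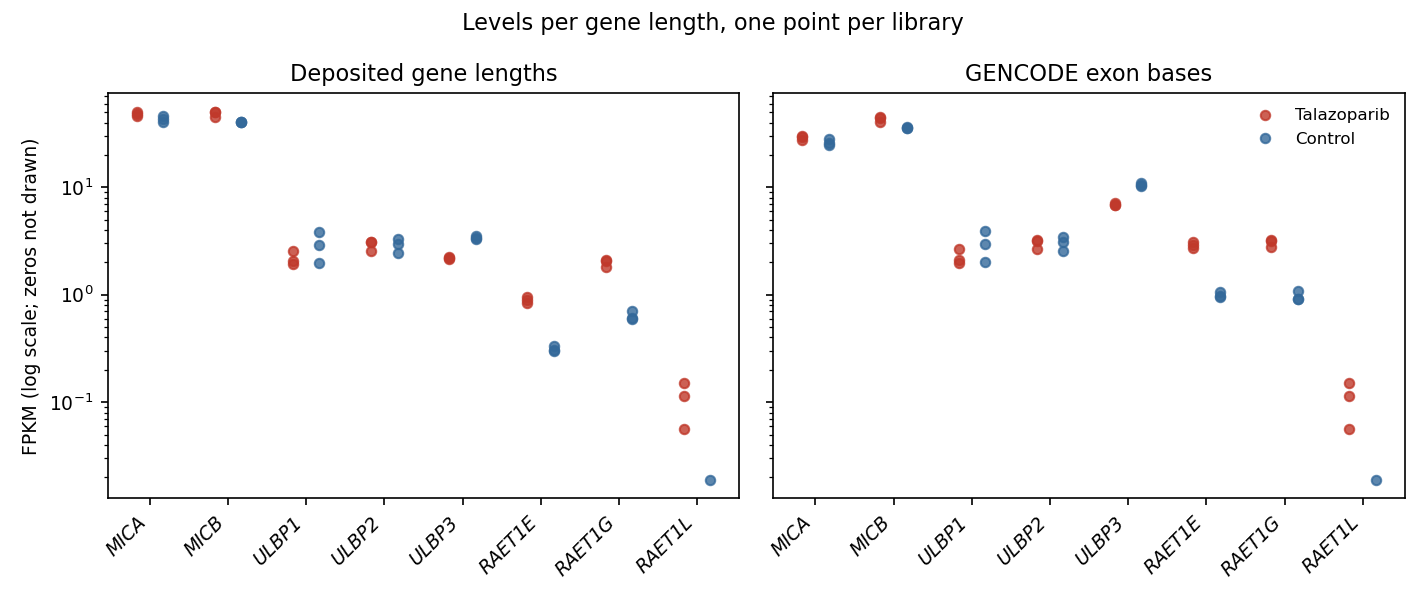
Level of each ligand per length (FPKM, log axis) in the talazoparib libraries (red) and the control libraries (blue), with the deposited gene lengths and with GENCODE exon lengths. MICA and MICB lie above the other ligands on both, with a smaller gap to ULBP3 on GENCODE lengths, and the place of RAET1E and ULBP3 depends on the length used.

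The order within the lower group depends on the length. The deposited length of RAET1E was 9671 bases, against 3004 annotated exon bases in GENCODE; for ULBP3 it was 3111 against 988, and for MICA 1443 against 2386. With the GENCODE lengths, ULBP3 followed MICB and MICA in both groups, at 6.94 FPKM with talazoparib and 10.6 FPKM in controls. RAET1G, ULBP2 and RAET1E were then nearly level with talazoparib, at 3.04, 3.02 and 2.89 FPKM, while in controls RAET1E and RAET1G were at 1.0 and 0.969 FPKM and ULBP2 at 3.02 FPKM. The fold changes from deposited counts do not use these lengths, whereas the trend-removed ones use the deposited lengths.

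Summed over the 8 genes, ligand RNA was 108, 110 and 102 FPKM in the talazoparib libraries, against 95.5, 91.4 and 94.5 FPKM in controls, without overlap. MICA and MICB held 89.3 to 90.8% of the sum with talazoparib and 88.5 to 90.5% in controls. ULBP1, ULBP2 and ULBP3 held 6.22 to 7.70% with talazoparib and 8.59 to 10.5% in controls, and RAET1E, RAET1G and RAET1L 2.56 to 2.96% with talazoparib and 0.944 to 1.07% in controls. With GENCODE lengths the RAET1 share was 6.09 to 7.0% with talazoparib and 2.32 to 2.51% in controls. On either length, the pool held a larger RAET1 share and a smaller ULBP share in every talazoparib library than in any control.

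GC content and length of each RNA were set beside its fold change, since genes of like GC or length tended to move together. RAET1E is in the longest decile of genes by deposited length, where 6.05% rose, 63.0% fell and the median log2 fold change was -0.65. Its rise of 1.60 thus ran opposite to that of most genes of that deposited length. GENCODE gives RAET1E 3004 exon bases against the deposited 9671, and its place among genes by GENCODE length was not tested. RAET1G is in a decile by GC content where 41.4% rose and 7.88% fell, with a median of 0.24, and its 1.72 was far above that median. ULBP3 is in the same decile by GC content and fell, against that decile's median. MICA is in the decile by deposited length where 44.2% rose and the median was 0.28. Its 0.22 was below that median, and it is in the GC decile of RAET1G. ULBP1 is in the decile by GC content where 61.7% fell and the median was -0.53, and its own value was -0.32. ULBP2, in the shortest decile, had 0.08 beside a median of 0.35. The GC values come from GENCODE transcripts, which for RAET1E and ULBP3 are much shorter than the deposited lengths, so the trend-removed values of these 2 carry that uncertainty.

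**Figure D4:**
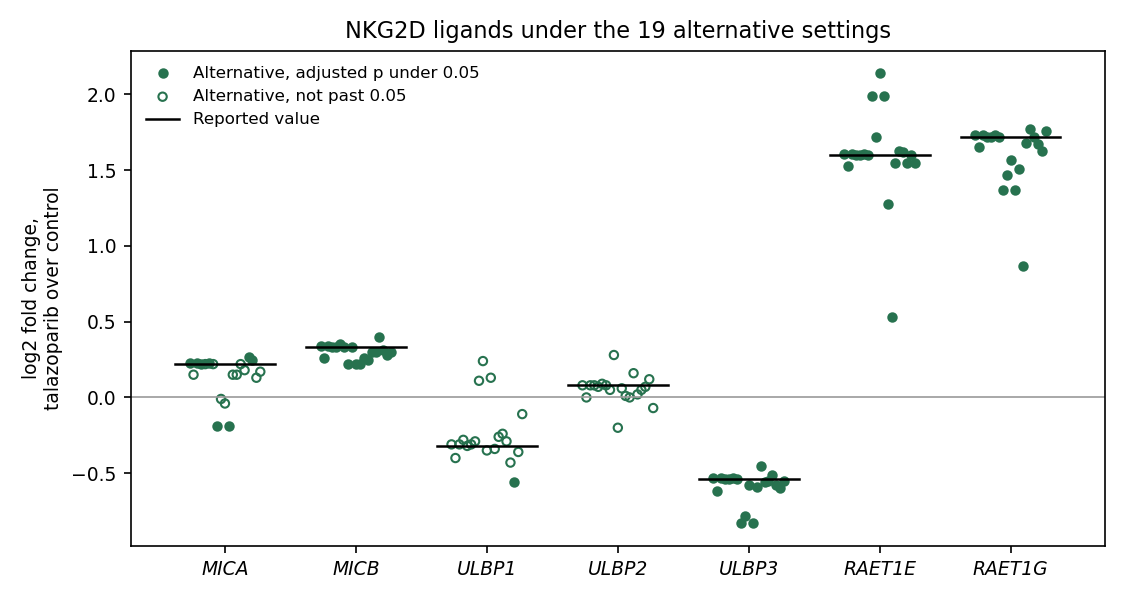
Log2 fold change, talazoparib over control, of each tested ligand as reported (black line) and under the 19 alternative settings (points), filled where the adjusted p passed 0.05. RAET1E, RAET1G and MICB are above 0 and ULBP3 below 0 in each, while MICA, ULBP1 and ULBP2 appear on both sides of 0.

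Genes whose level over the 6 libraries lay closest to a called ligand were sought among 10104 genes with a mean of at least 5 CPM, by the Euclidean distance between log2 CPM values centred on each gene's mean. MICB was closest to SYVN1 (0.03), which encodes a ubiquitin ligase of the endoplasmic reticulum, and to NCSTN (0.05), which encodes a gamma-secretase subunit. ULBP3 was closest to AAGAB (0.06) and BTF3 (0.07). RAET1E was closest to PLEKHG4 (0.30) and to KCNK3 (0.31), a potassium channel gene, whose log2 fold changes were 1.43 and 1.40. RAET1G was closest to TXNIP (0.34), which encodes a thioredoxin-binding protein, and FAM83A (0.37), whose log2 fold changes were 1.61 and 1.47. Closeness over 6 libraries says nothing of shared function.

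Surface ligand can be lost by shedding. Of 10 genes for proteases and helpers that shed NKG2D ligands and for metalloprotease inhibitors (TIMP1, TIMP2 and TIMP3), 7 were tested. Of these, 2 rose, including the inhibitor TIMP1, and 2 fell, with a median log2 fold change of 0.16. Trend-removed, 5 rose and 0 fell. Over all genes tested 26.8% rose and 29.9% fell (22.0% and 22.2% trend-removed). MMP14, a membrane-bound metalloprotease that can cleave MICA, averaged 35.4 ± 1.15 CPM with talazoparib and 19.4 ± 0.233 CPM in controls (SD, n = 3 each), a log2 fold change of 0.87 ± 0.09 (edgeR adjusted p = 2.00e-05). Trend-removed its value was 0.52, so it rose in both fits. ADAM10, another sheddase of MICA and MICB, averaged 53.5 ± 6.61 CPM with talazoparib and 82.5 ± 13.1 CPM in controls (SD, n = 3 each), with -0.63 ± 0.13 (edgeR adjusted p = 0.00142) in the deposited counts and 0.37 (edgeR adjusted p = 0.000608) trend-removed. Its direction thus depends on the fit, as did that of ADAM9 (-0.32 and 0.32). TIMP1, a metalloprotease inhibitor, had a log2 fold change of 0.40 ± 0.10 (edgeR adjusted p = 0.00410) and -0.05 trend-removed. MMP2 and TIMP3 were at 0 in every library, and MMP9 had 3 counts at most. The ADAM9 call was lost in 4 of 6 leave-outs (-0.32 to -0.23), without talazoparib replicate 1 or 2 or control replicate 2 or 3.

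Of 22 damage kinases and transcription regulators linked to NKG2D ligand genes, 10 rose and 10 fell, with a median of -0.07. Trend-removed, 8 rose and 7 fell. Over all genes tested 26.8% rose and 29.9% fell (22.0% and 22.2% trend-removed). ATM, a kinase that signals DNA double-strand breaks, averaged 7.46 ± 0.870 CPM with talazoparib and 27.6 ± 7.40 CPM in controls (SD, n = 3 each), a log2 fold change of -1.89 ± 0.19 (edgeR adjusted p = 2.21e-05) and of -0.81 trend-removed. SP1, which binds GC boxes, averaged 59.4 ± 2.0 CPM with talazoparib and 116 ± 14.0 CPM in controls (SD, n = 3 each), with -0.96 ± 0.09 (edgeR adjusted p = 1.31e-05) and -0.40 trend-removed. E2F1, a cell-cycle transcription factor, rose by 0.70 ± 0.08 (edgeR adjusted p = 2.30e-05; 0.24 trend-removed), while E2F3 of the same family had -0.75 ± 0.09 (edgeR adjusted p = 3.28e-05; -0.18 trend-removed). Links between these genes and the ligands were not tested.

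Of 12 ligands of other activating receptors, 10 were tested, 6 rose and 1 fell, with a median of 0.42. Trend-removed, 6 rose and 2 fell. For this list and the next, the shares over all genes tested were 26.8% that rose and 29.9% that fell (22.0% and 22.2% trend-removed). ICAM1, which binds the integrin LFA-1, averaged 152 ± 6.68 CPM with talazoparib and 64.6 ± 2.88 CPM in controls (SD, n = 3 each), a log2 fold change of 1.23 ± 0.08 (edgeR adjusted p = 1.71e-06) and of 0.89 trend-removed. NECTIN2, a DNAM-1 ligand, and CD70, the ligand of CD27, had 0.69 ± 0.08 and 0.93 ± 0.10 (edgeR adjusted p = 2.52e-05 and 2.38e-05), and both were above 0 trend-removed (0.32 and 0.50). NCR3LG1, which encodes the NKp30 ligand B7-H6, fell by 1.32 on the log2 scale (SE 0.18; edgeR adjusted p = 0.000120; -0.88 trend-removed). SLAMF7, which passed no filter, had 7 to 31 counts with talazoparib and 1 to 9 in controls. CD48 was not among the gene symbols. Of 12 ligands of inhibitory receptors, 9 were tested, 5 rose and 2 fell, with a median of 0.25; trend-removed, 2 rose and 0 fell. HLA-E, the ligand of NKG2A, averaged 220 ± 4.07 CPM with talazoparib and 147 ± 4.36 CPM in controls (SD, n = 3 each), a log2 fold change of 0.59 ± 0.07 (edgeR adjusted p = 3.35e-05) and of 0.30 trend-removed. HLA-C, a ligand of inhibitory KIR receptors, had 0.57 ± 0.08 (edgeR adjusted p = 0.000117), and 0.05 trend-removed, where it did not pass (edgeR adjusted p = 0.392). NECTIN3 of this list fell by 1.06 on the log2 scale (SE 0.15, edgeR adjusted p = 0.000109), with 0.00 trend-removed. HLA-G, CDH2 and CEACAM1 were too low to test.

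Of 13 target-cell genes of killing by NK cells, 4 rose and 5 fell, with a median of -0.09. Trend-removed, 6 rose and 2 fell. The list includes protective genes (SERPINB9, CFLAR, CD55 and CD59), of which SERPINB9 is among those that fell and CD59 among those that rose. The counts thus have no single meaning for killing. Over all genes tested 26.8% rose and 29.9% fell (22.0% and 22.2% trend-removed). JAK2, a kinase of the interferon-gamma receptor, averaged 1.29 ± 0.385 CPM with talazoparib and 3.82 ± 0.742 CPM in controls (SD, n = 3 each), a log2 fold change of -1.57 ± 0.25 (edgeR adjusted p = 0.000248) and of -0.74 trend-removed. FADD, an adaptor of death receptors, had 0.35 ± 0.09 (edgeR adjusted p = 0.00400) and -0.13 trend-removed (edgeR adjusted p = 0.0383), opposite directions in the 2 fits. Of the NKG2D receptor and its adaptors only HCST was measured, as KLRK1 and TYROBP were not among the gene symbols. HCST averaged 0.415 ± 0.0681 CPM with talazoparib and 0.282 ± 0.118 CPM in controls (SD, n = 3 each). It did not pass the test (edgeR adjusted p = 0.307).

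**Figure D5:**
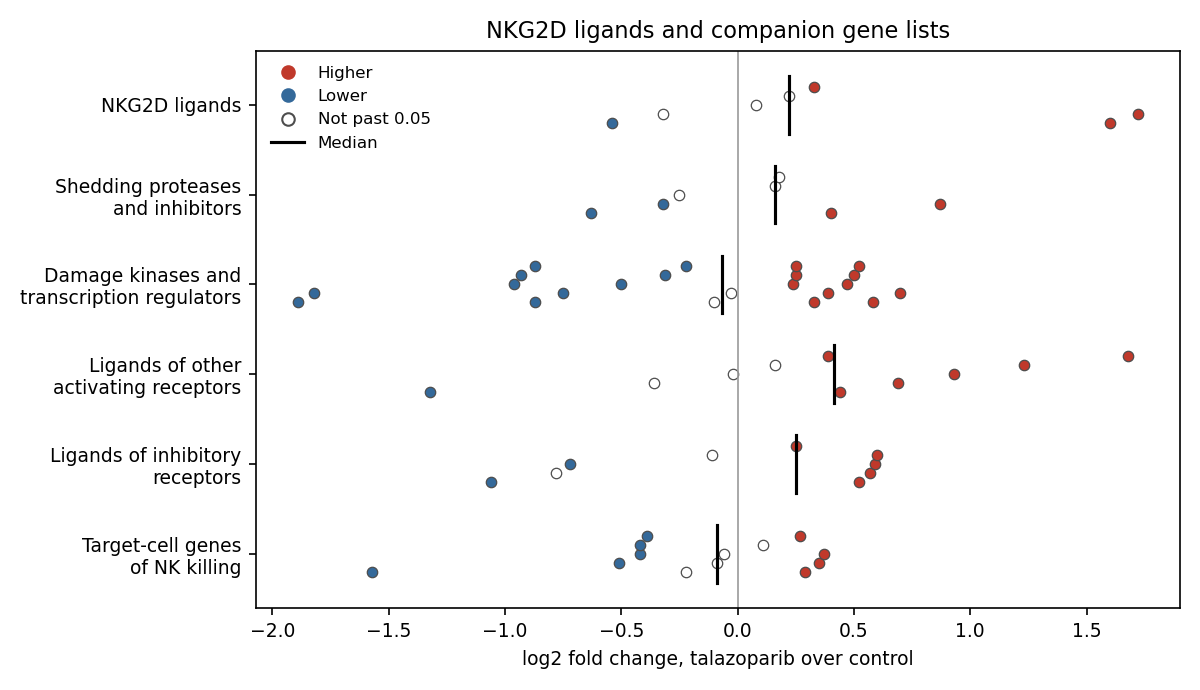
Log2 fold change, talazoparib over control, of every tested gene in the ligand list and the companion lists of shedding, regulator, other NK ligand and killing genes (deposited counts; red higher and blue lower at an adjusted p under 0.05, open otherwise, black bar the list's median). RAET1E and RAET1G (1.60 and 1.72) are the highest of the ligands, and the companion lists hold genes on both sides of 0. The shedding and killing lists include genes that oppose shedding or killing.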

How the data were processed

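The libraries were 3 of DU 145 cells with talazoparib and 3 controls, at 48 h. Read counts per gene and FPKM values were deposited by the authors. Per the submitters' processing notes, Trimmomatic, HISAT2, Cufflinks and HTSeq were used with GRCh38; for versions, annotation and strand setting the entry is: not given in the sources used here. Tested on the files, the deposited FPKM values equal the count divided by gene length and column total.

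Members and gene lists were chosen with earlier results of these data known. The text names all ligands, up to 4 tested genes per companion list with the smallest adjusted p, genes adjacent to a ligand, and the 2 closest profiles of each called ligand. Genes were kept by edgeR's filterByExpr (minimum count 10) and tested with edgeR 4.0.16 (TMM, quasi-likelihood, R 4.3.3), Benjamini-Hochberg adjusted, threshold 0.05, with no covariate. The SE was taken as |log2 fold change| over the root of F. Trend-removed values come from the same fit with per-library offsets from natural splines (5 df) of log2 CPM (prior count 2) on GC content and length, for the 94.9% of genes with both. limma 3.58.1 and DESeq2 1.42.0 served as alternatives. Scripts were tested on simulated data. Depth was 39123997 to 39585727 counts per library, intervals cover counting error only, and no replicates agreed within sampling noise. Promoter sequences are RefSeq's (GRCh38.p14), and coordinates are GENCODE's. Amino acid sequences and PC-3 data were not analysed here. Some genes of the marker and companion lists are not reported here.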

Additional observations from a re-analysis of the deposited data

How the results depend on the processing

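In 19 alternatives (6 of which leave out 1 library), MICB, ULBP3, RAET1E and RAET1G kept their direction and their call, with log2 fold changes of 0.22 to 0.40, -0.83 to -0.45, 0.53 to 2.14 and 0.87 to 1.77 and highest adjusted p of 0.0464, 0.0176, 0.000639 and 0.000763. The lowest RAET1 values came from limma on log2(FPKM + 1), which compresses low genes by construction. MICA passed in 8 of 19, with 6 higher (such as 0.23, adjusted p = 0.0482, in DESeq2 and 0.22, adjusted p = 0.0494, in voom) and 2 lower. MICA reversed to -0.19 with the GC and length trend removed (-0.19 also with replicate block), -0.01 with GC alone and -0.04 with length alone. ULBP1 reversed to 0.11 with both trends removed, 0.24 with GC alone and 0.13 with both and the block. ULBP2 reversed to -0.20 with length alone and ran from -0.07 (without control replicate 3) to 0.16 when 1 library was left out. ULBP1 passed in 1 of 19, and ULBP2 in 0. The cause of these reversals was not tested. With no low-count filter 4 ligands rose, RAET1L being the one added. The number of ligands that fell was 2 in place of 1 with the trends removed, with or without the block, and 1 to 2 when 1 library was left out. Over all genes, 2622 to 3973 rose and 3731 to 4576 fell when 1 library was left out.

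Deviations from the group mean of same-numbered libraries had correlations of -0.09, -0.17 and 0.00, against -0.11 to 0.19 for unlike numbers. With 3 libraries per group, whose deviations sum to 0, such correlations cannot decide whether the libraries were paired. With a replicate block, 3428 genes rose and 4192 fell, against 3873 and 4327 without it, and the ligand counts stayed at 3 and 1. With the block and both trends removed, 2545 rose and 2557 fell. Depth limits RAET1L, and the spread between 3 libraries limits ULBP1 and ULBP2.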
